A study of Mus musculus with 10 samples.

Results

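The genes described here are type I interferon-stimulated genes, a group of antiviral and regulatory genes whose transcription is raised by type I interferon in most mouse cells. A list of 42 such genes was matched by symbol to the deposited table of normalized read counts, and those with a mean of at least 10 over the 10 libraries were kept. All 42 were found among 57010 gene identifiers, and 40 were kept, out of 12455 genes of the table above that mean. The study measured gene expression by RNA sequencing in macrophages derived in culture from the bone marrow of mice. Cells came from wild-type mice (WT) or from mice without WASp (WKO), the activator of branched actin assembly in blood cells that the gene Was encodes. The comparison asks how the loss of WASp and a short mechanical confinement, separately and together, alter expression.

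All groups shared a culture of 7 days in RPMI medium with 20 ng/mL recombinant mouse M-CSF, the growth factor that drives macrophage differentiation, and an mRNA library kit with an input of 5 ng RNA. WT unconfined cells (replicates 1 and 3) and WKO unconfined cells (replicates 1 and 3) were controls. WT confined cells (replicates 2, 3 and 6) and WKO confined cells (replicates 1, 2 and 5) were held for 1 h under PDMS micropillars at a height of 3 µm. Strain, age, the Was allele and the origin of each replicate are not given in the sources used here. Since nothing says that replicates came from separate cultures or animals, p-values measure only the spread between these libraries, which may be technical.

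As background, type I interferons bind a receptor made of IFNAR1 and IFNAR2, which activates the kinases JAK1 and TYK2. Their signal forms a complex named ISGF3, with STAT2 and IRF9 among its subunits, that binds the interferon-stimulated response element (ISRE) of its target genes. Macrophages hold a low tonic expression of many of these genes without infection, and raise them after nucleic acids are sensed in the cytosol. Several members, among them Cxcl10 and the guanylate-binding proteins, can also be driven by interferon-γ and by NF-κB, a factor of inflammatory signalling.

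The 10 libraries held 13295701 to 19329908 reads, so that 3 reads, taken as the detection floor, were worth 2.35 to 3.59 normalized read counts. That floor covers counting error only, because PCR reads without molecular identifiers are not independent molecules. Was stood at 1308 to 1649 in the 5 WT libraries and at 96.9 to 154 in the 5 WKO libraries, in the direction of the labels. All 8 macrophage markers listed were present. Their summed level was 179561 to 208283 in the 5 WT libraries and 241895 to 314561 in the 5 WKO libraries, without overlap. Markers of other cells moved with the groups. The sum of 10 neutrophil and progenitor markers was 6966 to 10900 in WT unconfined, 24998 to 30143 in WKO unconfined, 2568 to 7960 in WT confined and 7000 to 28200 in WKO confined libraries. For 6 B lineage markers the ranges were 420 to 1038 in WT and 1834 to 6529 in WKO libraries. Stromal markers, 10 in number, summed to 166 to 1685 in WT and 815 to 2864 in 4 of the WKO libraries, but to 8706 in WKO confined replicate 5. That library was the highest of all for 9 of the 10 stromal markers, although Lum among them was at 0 to 4.79 everywhere. For 6 plasmacytoid dendritic cell markers the sums were 1079 to 1095 in WT unconfined and 1315 to 1370 in WKO unconfined libraries. In confined libraries they were 1121 to 1249 for WT and 1003 to 2333 for WKO. The sum was highest in WKO confined replicate 5, but that library was the highest for only 1 of the 6 markers. Siglech was at 3.21 to 78.9 and Klk1 at 0. Dendritic cell markers, 4 in number, summed to 8.03 to 25.9 in WT and 22.0 to 53.9 in WKO libraries, with Xcr1 at 0 throughout, and 4 T and NK cell markers to at most 21.2. In bulk RNA, fewer cells of a type and less RNA per cell cannot be told apart.

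Promoters of the members were examined for the ISRE because it is the element that ISGF3 reads. Windows from 250 bases before to 50 bases after the start of a gene (RefSeq, GRCm38.p6) were matched for 32 of the 42 genes. The ISRE was searched on both strands as GAAA, any 2 bases and GAAA again. It occurred in 19 of the 32 (59.4%), against 3.99% of all 27025 genes with a window. GAS, an element of interferon-γ responses, was searched likewise as TTC, any 3 bases and GAA, and occurred in 5 of 32 (15.6%) against 9.55% of all genes. NF-κB sites were searched as GGGA, any 2 bases and TTCC or TCCC, and occurred in 5 of 32 (15.6%) against 2.38%, namely in Cxcl10, Gbp2, Gbp5, Ifit2 and Isg20. Windows holding both an ISRE and an NF-κB match were those of Cxcl10, Gbp2 and Gbp5 (9.38% of members, 0.0851% of all genes). A match describes letters and is no evidence of binding. Shown are the 250 bases before the start of Cxcl10 (chr5:92348890-92349139, minus strand), Gbp5 (chr3:142496684-142496933, plus strand), Rsad2 (chr12:26456453-26456702, minus strand) and Ifit3b (chr19:34607707-34607956, plus strand), since these 4 genes carry the comparisons that follow. They are written 5′ to 3′ on the strand of the gene, with ISRE and NF-κB matches in capitals; none of these matches overlap each other.
Cxcl10: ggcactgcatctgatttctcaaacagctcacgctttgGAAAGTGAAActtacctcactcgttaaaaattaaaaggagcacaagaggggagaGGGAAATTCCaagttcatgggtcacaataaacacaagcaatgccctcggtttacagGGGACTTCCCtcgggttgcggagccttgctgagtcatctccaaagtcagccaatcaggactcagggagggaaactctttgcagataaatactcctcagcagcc
Gbp5: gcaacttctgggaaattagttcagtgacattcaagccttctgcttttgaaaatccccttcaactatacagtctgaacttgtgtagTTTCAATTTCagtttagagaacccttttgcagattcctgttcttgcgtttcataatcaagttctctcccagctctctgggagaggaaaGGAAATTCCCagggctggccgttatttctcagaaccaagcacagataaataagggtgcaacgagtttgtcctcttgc
Rsad2: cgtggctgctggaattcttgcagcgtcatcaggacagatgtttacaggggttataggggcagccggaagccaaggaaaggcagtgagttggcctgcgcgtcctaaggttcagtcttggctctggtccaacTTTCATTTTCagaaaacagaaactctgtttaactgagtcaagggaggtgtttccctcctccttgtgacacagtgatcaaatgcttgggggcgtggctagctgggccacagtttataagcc
Ifit3b: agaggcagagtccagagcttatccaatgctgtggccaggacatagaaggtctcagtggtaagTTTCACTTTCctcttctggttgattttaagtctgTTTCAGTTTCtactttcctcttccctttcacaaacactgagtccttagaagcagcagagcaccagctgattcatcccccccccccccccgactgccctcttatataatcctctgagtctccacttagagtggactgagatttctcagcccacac

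In the Cxcl10 promoter, an ISRE in the forward orientation (bases -213 to -204, with the start of the gene as base 0) stood upstream of 2 NF-κB matches at -159 to -150 and -103 to -94. In that of Gbp5 the ISRE was on the opposite strand at -165 to -156 and the NF-κB match, also on the opposite strand, at -77 to -68. The Rsad2 window held 1 ISRE at -120 to -111, and that of Ifit3b held 2, at -188 to -179 and -154 to -145, all on the opposite strand and without an NF-κB match. Both sets of letters thus occur in the promoters of Cxcl10 and Gbp5, and the ISRE letters alone in those of Rsad2 and Ifit3b.

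Most members were readily detected in unconfined WT macrophages. Expressed per kilobase of exon and averaged over all libraries, the highest levels were those of Ifi27l2a (2365 normalized read counts per kilobase), a small membrane protein of mitochondria and the nuclear envelope, and Bst2 (1255 per kilobase), which tethers budding virus to the cell surface. The DNA sensor Ifi204 followed at 444 per kilobase and the 2-5A synthetase Oas1a, which makes the activator of RNase L, at 377 per kilobase. Lowest among the kept members was Ifi44, at 4.12 per kilobase. In the WT unconfined libraries alone, Oas1a (409 per kilobase) was above Ifi204 (366), and Ifi205 (2.06) was the lowest kept member. Reads of Oas1a and Oas1g cannot be safely divided, because their transcripts are alike over most of their length.

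Of the 2 genes not kept, Ifi44l had no read in any library. Cxcl9, a chemokine known mainly as a target of interferon-γ, stood at 7.60 and 0 in WT unconfined, 2.96 and 0 in WKO unconfined, 0 in all WT confined, and 0, 0 and 5.99 in WKO confined libraries. The groups overlapped, and 7 of the 10 values were 0, which the floor of 3 reads limits to at most 3.59 normalized read counts.

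Interferon genes themselves were essentially without reads. Of 21 type I, II and III interferon genes listed, 20 had 0 reads in every library, and the most that any gene had in a library was 1 read. All 3 reads seen were those of Ifnb1, which encodes interferon-β. The floor of 3 reads applies to each of them in each library, so that expression below it was not detectable at this depth.

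**Figure D1:**
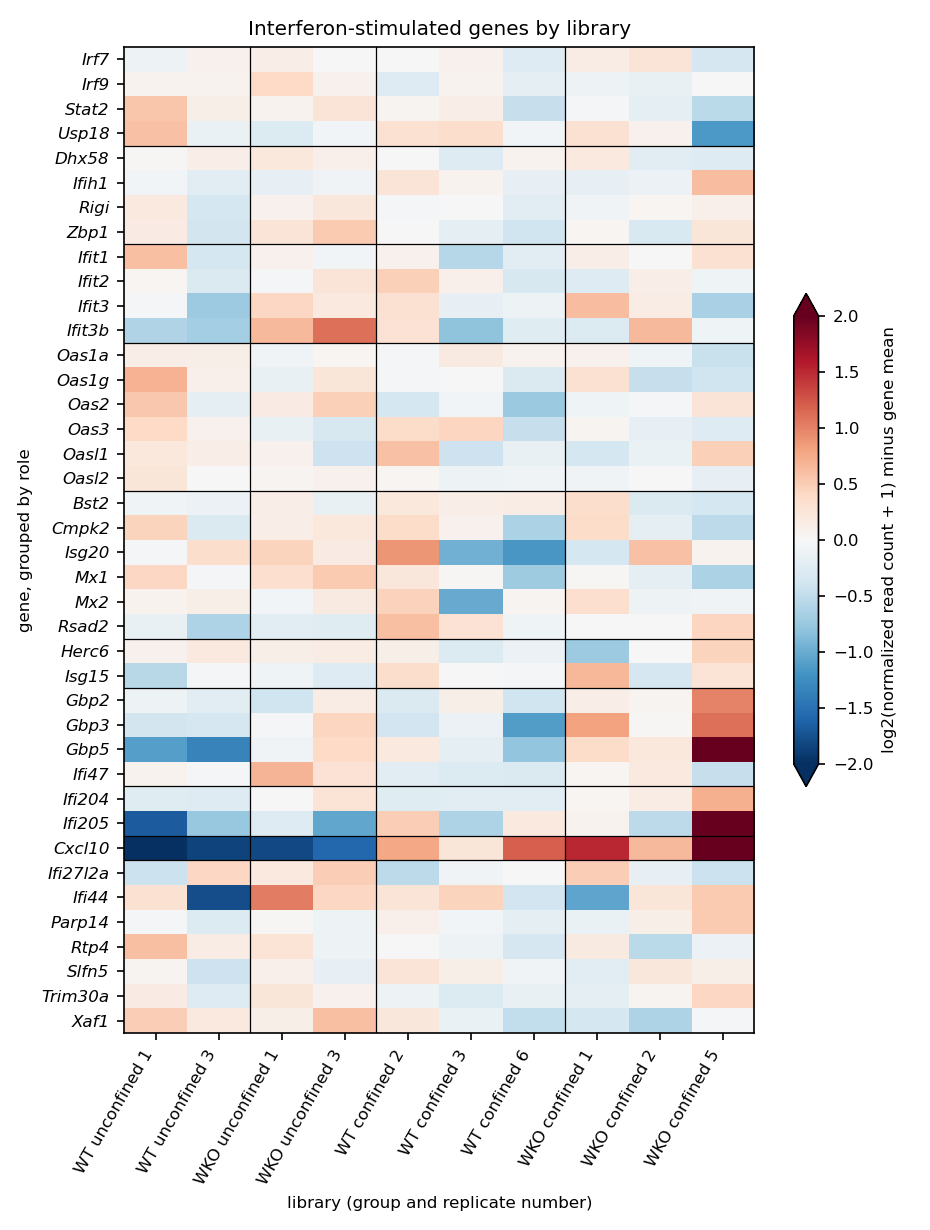
Heat map of the 40 kept members (rows, grouped by role) in the 10 libraries (columns); colour gives log2(normalized read count + 1) minus the gene's mean over the libraries, with values beyond -2 and 2 shown at the ends of the scale. Most rows are pale, Cxcl10 is low in the 4 unconfined libraries and high in the 6 confined ones, and WKO confined replicate 5 holds the highest value for 10 members and the lowest for 7.

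Values below are normalized read counts, given for each group in the order of its replicate numbers. Fold changes are differences of group means on the log2(value + 1) scale with their standard errors (SE), which understate the change of low genes. Tests came from limma, a linear model fitted to all 10 libraries, with p-values adjusted by the Benjamini-Hochberg method over all 12455 tested genes and a threshold of 0.05. WKO confined replicate 5 accounts for 10 of the 40 highest values. Without it, 7 of the 40 members changed the sign of their difference between confined WKO and WT cells, 9 that of the confinement difference in WKO and 10 that of the interaction, none of them past the threshold in either fit.

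After 1 h of confinement 1 member of the list rose, the chemokine gene Cxcl10, whose product draws T cells and NK cells through the receptor CXCR3. Cxcl10 stood at 6.65 and 20.2 in WT unconfined, 20.7 and 24.8 in WKO unconfined, 129, 89.2 and 174 in WT confined, and 217, 118 and 1377 in WKO confined libraries. Each of the 6 confined libraries was above each of the 4 unconfined ones, and WKO confined replicate 5 was several times above the rest. In WKO cells the change was 3.80 (SE 0.80), a 13.9-fold difference, with an adjusted p of 0.0373 by limma.

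In WT cells Cxcl10 differed by 3.32 (SE 0.80), a 9.97-fold difference that missed the threshold, with an adjusted p of 0.0826 by limma. The effect in WKO minus that in WT was 0.48 (SE 1.13, adjusted p 0.999 by limma), so that no difference between genotypes was shown. Its sign turned without WKO confined replicate 5 (-0.55) or WT unconfined replicate 3 (-0.25), with array weights (-0.57) and with the replicate block (-0.12). Array weights gave WKO confined replicate 5 a weight of 0.321. The replicate block fits that library exactly, because no other library has its number. Neither setting is thus independent of leaving that library out. Averaged over both genotypes, a contrast chosen after the values were seen, the change was 3.56 (SE 0.57), 11.8-fold, with an adjusted p of 0.00352 by limma. That averaged call held under all 20 alternatives tried, with adjusted p-values between 4.00e-06 and 0.0331 by limma, edgeR and DESeq2.

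In single genotypes, fewer alternatives gave the call. In WKO cells Cxcl10 passed under 10 of 21 alternatives (adjusted p 0.000499 to 0.294); it did not pass with edgeR (0.0526) or when any 1 of the 4 unconfined or the 3 WT confined libraries was left out. In WT cells 5 of 21 passed (adjusted p 0.00101 to 0.414), among them the fit without WKO confined replicate 2 (0.0496 by limma). Without WKO confined replicate 5, whose stromal marker sum was 8706, the changes of Cxcl10 were 2.77 in WKO (adjusted p 0.0102 by limma) and 3.32 in WT (adjusted p 0.00101 by limma), so that both passed. Exons of Cxcl10 overlap those of Art3, which was at 0 to 0.987 in every library.

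**Figure D2:**
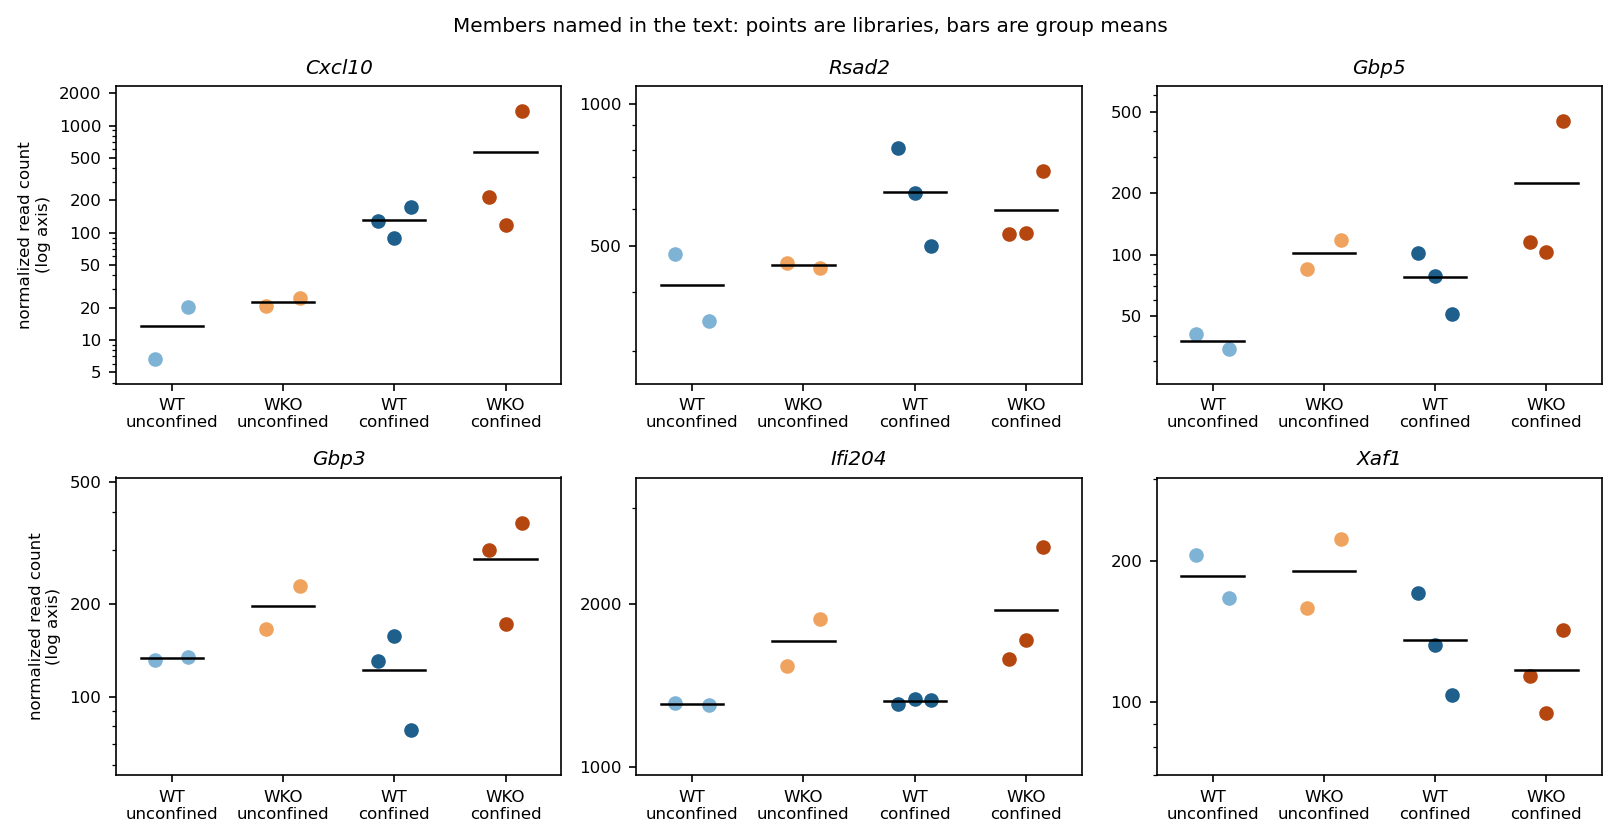
Normalized read counts (log axis) of 6 members in the 4 groups; points are libraries and bars are group means. For Cxcl10 all confined libraries lie above all unconfined ones, while for Gbp3 and Ifi204 all 5 WKO libraries lie above all 5 WT libraries.

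No other member passed with confinement in either genotype. In WT cells 0 of 40 members passed the threshold of limma, where 1.16% of all tested genes did; edgeR and DESeq2 also called 0. An unadjusted p under 0.05 was reached by 4 members (10%), against 12.2% of all tested genes: Cxcl10 and Rsad2 on the higher side and Oas2 and Rtp4 on the lower. The median change of the 40 was -0.11, against -0.0066 over all tested genes, and 15 were above 0 (37.5%) against 49% of all tested genes. WT groups did not overlap for 5 members higher under confinement (12.5%, against 18.3% of tested genes) and for 3 lower (7.5%, against 17.7%).

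In WKO cells 1 of 40 members passed, which is 2.5% where 1.72% of all tested genes did. Unadjusted p-values under 0.05 belonged to 4 members (10%), against 14.1% of tested genes, and apart from Cxcl10 these were Ifi47, Mx1 and Xaf1, all lower. The median was -0.13, against -0.013 over all tested genes, and 14 members were above 0 (35%) against 48%. Cxcl10 and Rsad2 were higher without overlap (5%, against 14.5% of tested genes), and Ifi47, Ifit3b, Irf9, Mx1, Oasl2, Stat2, Xaf1 and Zbp1 were lower without overlap (20%, against 13.8%). Both confinement contrasts compare different libraries within each genotype but were fitted with a common estimate of spread.

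Rsad2 encodes viperin, an enzyme that makes a chain-terminating nucleotide. Its values were 481 and 346 in WT unconfined, 461 and 449 in WKO unconfined, 805, 649 and 500 in WT confined, and 530, 534 and 720 in WKO confined libraries. All 6 confined libraries were above all 4 unconfined ones, by a narrow margin between WT unconfined replicate 1 and WT confined replicate 6. The difference was 0.65 (SE 0.22, adjusted p 0.233 by limma) in WT and 0.37 (SE 0.22, adjusted p 0.474) in WKO. Averaged over genotypes it was 0.51 (SE 0.15, adjusted p 0.0771 by limma), which passed with DESeq2 (0.0231) but not with edgeR, and passed without WKO confined replicate 1 (0.0429 by limma). In that averaged contrast Cxcl10 and Rsad2 were the members whose groups did not overlap, higher under confinement (5%, against 4.46% of tested genes), and 1 of 40 passed where 6.21% of tested genes did. Members with an unadjusted p under 0.05 numbered 10 (25%), against 21.6% of tested genes, and 15 of 40 were above 0 (37.5%), against 47.3% of tested genes; 0 were lower without overlap (0%, against 2.93%).

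On the lower side, Xaf1, an interferon-induced partner and antagonist of the apoptosis inhibitor XIAP, stood at 206 and 167 in WT unconfined, 159 and 223 in WKO unconfined, 171, 133 and 104 in WT confined, and 114, 94.7 and 143 in WKO confined libraries. The WKO groups did not overlap, whereas WT confined replicate 2 lay between the WT unconfined values. Its changes were -0.48 (SE 0.27, adjusted p 0.523 by limma) in WT and -0.70 (SE 0.27, adjusted p 0.261) in WKO. With array weights, which give libraries unequal influence, the WKO difference of Xaf1 passed at -0.92 (adjusted p 0.0159 by limma). This was the only 1 of 21 alternatives under which it passed. WKO confined replicate 2, the lowest library for Xaf1, there had a weight of 3.74, against 0.283 and 0.321 for replicates 1 and 5.

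Ifi47 is a GTPase of the p47 family that acts on vacuoles holding parasites and bacteria. It stood at 187 and 177 in WT unconfined, 286 and 218 in WKO unconfined, 153, 148 and 146 in WT confined, and 183, 204 and 129 in WKO confined libraries. Confined libraries were below unconfined ones of their genotype without overlap, yet neither difference passed: -0.28 (SE 0.22, adjusted p 0.658 by limma) in WT and -0.56 (SE 0.22, adjusted p 0.276) in WKO.

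Oas2, another 2-5A synthetase, had values of 625 and 379, 482 and 596, 337, 412 and 257, and 402, 422 and 516 in WT unconfined, WKO unconfined, WT confined and WKO confined libraries. WT groups overlapped, since WT unconfined replicate 3 lay below WT confined replicate 3. The WT difference was -0.56 (SE 0.24, adjusted p 0.379 by limma). Neutrophil and progenitor markers were below 0 in both confinement contrasts for 10 of 10, none past the threshold. Stromal markers were below 0 in WT for 9 of 9 but above 0 in WKO for 6 of 9, none past the threshold. Macrophage markers were above 0 for 5 of 8 in WT, none past the threshold, and for 6 of 8 in WKO, where 1 rose (adjusted p 0.0324 by limma). B lineage markers were below 0 for 5 of 5 in both genotypes, and 1 of them fell in WT by limma. The part of all these markers in the differences of the members was not tested.

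**Figure D3:**
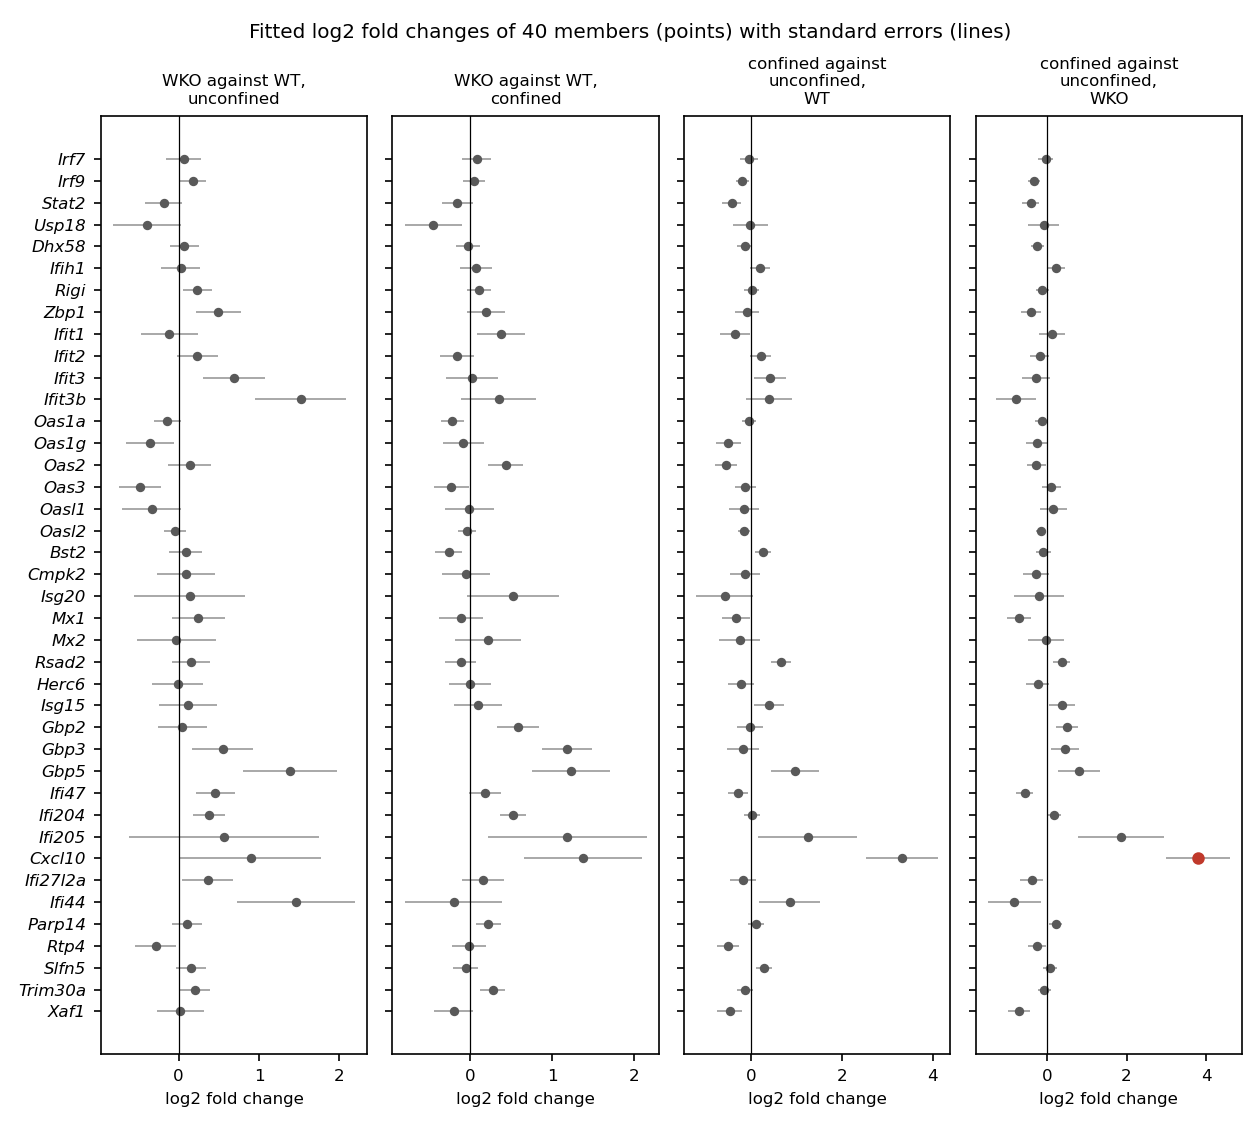
Fitted log2 fold changes (points, horizontal axis) with 1 standard error to each side (lines) for the 40 kept members in 4 contrasts; the red point marks the single member past the adjusted threshold, Cxcl10 in WKO cells. Guanylate-binding genes and Ifi204 lie to the right of 0 in both genotype contrasts, and most other members lie within 1 of 0.

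Between genotypes no member passed the threshold by limma. Gbp3 and the DNA sensor gene Ifi204 were higher in every WKO than in every WT library, and Gbp5 was higher in WKO within each condition. Guanylate-binding proteins (Gbp2, Gbp3, Gbp5) are GTPases that assemble on pathogen membranes and promote inflammasome activation. All 4 members of the GTPase group and both Pyhin members had differences above 0 in both conditions, though that of Ifi205 in confined cells (1.19) was -0.26 without WKO confined replicate 5; the group medians were 0.50 unconfined and 0.88 confined for the GTPases. In unconfined cells 0 of 40 members passed by limma, where 0.145% of all tested genes did, and edgeR and DESeq2 called 0. In confined cells limma and edgeR called 0, where 2.59% of tested genes passed by limma, and DESeq2 called 3, namely Gbp3, Gbp5 and Ifi204. That share of 2.59% is no background for the DESeq2 calls, because DESeq2 also called more of all tested genes than limma did. The counts of genes by DESeq2 are given below with the other alternatives.

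Over the whole list in unconfined cells, 29 of 40 members were above 0 (72.5%) against 50.3% of all tested genes, with a median of 0.13 against 0.0022. Unadjusted p-values under 0.05 were those of Gbp5 and Ifit3b (5%), against 9.6% of all tested genes. Groups of 2 did not overlap for 10 members higher in WKO (25%, against 22.2% of tested genes) and for 3 lower, Oas1a, Oas3 and Oasl1 (7.5%, against 22.7%). In confined cells 22 members were above 0 (55%) against 50.5%, with a median of 0.056 against 0.0036; without WKO confined replicate 5, 25 members were above 0. There 4 members had an unadjusted p under 0.05 (10%, against 16.8% of tested genes), and Gbp3, Gbp5 and Ifi204 were higher in WKO without overlap (7.5%, against 10.7%), while 0 were lower without overlap (0%, against 10.4%). Apart from the shares above 0, the shares of the members lay near or below those of all genes.

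Gbp3 stood at 132 and 134 in WT unconfined, 166 and 230 in WKO unconfined, 131, 157 and 77.9 in WT confined, and 300, 173 and 369 in WKO confined libraries. Every WKO library was above every WT library. The difference was 0.55 (SE 0.38, adjusted p 0.714 by limma) in unconfined and 1.18 (SE 0.31, adjusted p 0.0682) in confined cells, where DESeq2 gave an adjusted p of 0.00433. Without WKO confined replicate 5 the confined difference was 0.95 (adjusted p 0.133 by limma), and without WKO confined replicate 2 it passed at 1.50 (adjusted p 0.0272 by limma).

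Gbp5 had values of 40.8 and 34.5, 84.8 and 118, 102, 78.6 and 51.4, and 115, 103 and 452 in WT unconfined, WKO unconfined, WT confined and WKO confined libraries. WKO libraries were above the WT libraries of the same condition without overlap, and WKO confined replicate 5 held the highest value. The genotype difference was 1.39 (SE 0.59, adjusted p 0.472 by limma) unconfined and 1.23 (SE 0.48, adjusted p 0.218) confined. The confined difference of Gbp5 without WKO confined replicate 5 was 0.55 (adjusted p 0.445 by limma).

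Gbp2 stood at 258 and 237 in WT unconfined, 211 and 310 in WKO unconfined, 227, 300 and 210 in WT confined, and 304, 287 and 552 in WKO confined libraries. WT and WKO libraries overlapped in both conditions, since WKO confined replicate 2 was below WT confined replicate 3. The confined difference was 0.58 (SE 0.25, adjusted p 0.269 by limma), and 0.28 without WKO confined replicate 5 (adjusted p 0.566). In unconfined cells it was 0.05 (SE 0.31, adjusted p 0.983 by limma).

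Ifi204, a nuclear and cytosolic sensor of DNA, stood at 1310 and 1297 in WT unconfined, 1535 and 1873 in WKO unconfined, 1307, 1335 and 1327 in WT confined, and 1582, 1712 and 2544 in WKO confined libraries. The 5 WT values lay close together and below all 5 WKO values. The difference was 0.38 (SE 0.19, adjusted p 0.594 by limma) unconfined and 0.52 (SE 0.16, adjusted p 0.108) confined, where DESeq2 gave 0.0273. Leaving out WKO confined replicate 1 put it past the threshold (0.66, adjusted p 0.0351 by limma). Without WKO confined replicate 5 the confined difference was 0.31 (adjusted p 0.172 by limma).

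Reads of Ifi204 are uncertain, because Ifi211 covers 59.3% of its transcript at 96.9% identity in the best stretch. Ifi211 stood at 244 and 243 in WT unconfined, 331 and 331 in WKO unconfined, 317, 337 and 384 in WT confined, and 378, 431 and 897 in WKO confined libraries. Its groups overlapped across conditions, although WKO exceeded WT in unconfined cells. The other Pyhin member, Ifi205, stood at 5.70 to 28.9 in 9 libraries and at 365 in WKO confined replicate 5, the library with the high stromal sum. Its confined genotype difference was 1.19 (SE 0.97, adjusted p 0.598 by limma) with that library and -0.26 (adjusted p 0.891) without it; this gene is singled out after its values were seen.

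Averaged over both conditions, a contrast chosen after the values were seen, 0 of 40 members passed by limma where 5.57% of tested genes did; 4 (10%) had an unadjusted p under 0.05, against 20.2%, and 29 were above 0 (72.5%), against 50.7%. DESeq2 called 3, and edgeR called 0. In this contrast, too, DESeq2 called more of all tested genes than limma did, so the limma share is no background for its 3 members. The smallest adjusted p-values by limma were those of Ifi204 (0.45, SE 0.13, adjusted p 0.0597), Gbp3 (0.87, SE 0.24, adjusted p 0.0618) and Gbp5 (1.31, SE 0.38, adjusted p 0.0695). Gbp3 and Ifi204 were the members with no overlap between all WKO and all WT libraries (5%, against 3.38% of tested genes), and 0 were lower without overlap (0%, against 3.33%). Leaving out WKO confined replicate 5 put Ifi204 (0.35, adjusted p 0.0226 by limma) and Gbp5 (0.97, adjusted p 0.0242 by limma) past the threshold, at smaller differences. Without WKO confined replicate 1, Ifi204 (adjusted p 0.0199 by limma) and Gbp5 (0.0409) passed, and without WKO confined replicate 2, Gbp3 (0.0238 by limma) and Gbp5 (0.0464) did.

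Markers of neutrophils and progenitors were above 0 in WKO against WT for 10 of 10 tested markers in both conditions, B lineage markers for 4 of 5, and stromal markers for 9 of 9. Macrophage markers were above 0 for 6 of 8 in unconfined and 7 of 8 in confined cells, plasmacytoid dendritic cell markers for 3 of 4 and 4 of 4, and dendritic cell markers for 2 of 2 in both. Past the threshold of limma in confined cells were 6 stromal, 3 B lineage, 3 macrophage and 1 dendritic cell markers, and in unconfined cells 1 B lineage and 1 macrophage marker, all higher in WKO. The part of such differences in the values of the GTPase and Pyhin genes was not tested.

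Ifit3b, a near copy of Ifit3 in a family of proteins that bind viral RNA, gave the largest unconfined genotype difference, 1.52 (SE 0.56, adjusted p 0.401 by limma). Its values were 12.3 and 11.5 in WT unconfined, 30.6 and 42.3 in WKO unconfined, 23.6, 10.6 and 16.1 in WT confined, and 15.7, 30.5 and 18.0 in WKO confined libraries. Unconfined groups did not overlap, and confined groups did. In confined cells the difference was 0.35 (SE 0.46, adjusted p 0.770 by limma). Its transcript is nearly the same as that of Ifit3, with 97.8% identity in the best stretch, so that reads could be split between them.

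Ifi44, a protein of unknown biochemical role, differed by 1.46 (SE 0.73, adjusted p 0.580 by limma) between unconfined genotypes. It stood at 27.5 and 5.76 in WT unconfined, 46.4 and 29.9 in WKO unconfined, 26.8, 30.5 and 16.9 in WT confined, and 10.2, 26.3 and 32.4 in WKO confined libraries. WT unconfined replicate 3 was the lowest of all, and confined groups overlapped, with a difference of -0.21 (SE 0.60, adjusted p 0.910 by limma), or -0.52 without WKO confined replicate 5.

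Whether the effect of confinement differed by genotype was asked with an interaction contrast. For this, 0 of 40 members and 0 of 12455 tested genes (0%) passed by limma, and edgeR and DESeq2 also gave 0 for both. At an unadjusted p under 0.05 there were 0 members, against 2.07% of tested genes (258 genes). The members with the smallest p were Ifi44 (-1.67, SE 0.95), Ifit3b (-1.17, SE 0.72) and Gbp2 (0.54, SE 0.40), each with an adjusted p of 0.999 by limma; that of Gbp2 was 0.24 without WKO confined replicate 5. The median was -0.0078, against 0.0064 over all tested genes, with 20 members above 0 (50%), against 51.1% of tested genes.

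Among the transcription factors and feedback genes none passed in any contrast, and all 4 were below 0 in both confinement contrasts, though Irf7 (0.14) and Usp18 (0.36) were above 0 in WKO without WKO confined replicate 5. Stat2, the ISGF3 subunit with the transactivation domain, stood at 1257 and 927 in WT unconfined, 892 and 1014 in WKO unconfined, 885, 937 and 620 in WT confined, and 838, 751 and 586 in WKO confined libraries. WKO confined libraries were below WKO unconfined ones without overlap, while WT groups overlapped. Its change under confinement was -0.43 (SE 0.21, adjusted p 0.447 by limma) in WT and -0.41 (SE 0.21, adjusted p 0.406) in WKO.

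Irf9, the DNA-binding subunit of ISGF3, stood at 564 and 562 in WT unconfined, 710 and 569 in WKO unconfined, 447, 563 and 471 in WT confined, and 502, 482 and 538 in WKO confined libraries. WKO confined values were below WKO unconfined values without overlap, by 0.33 on the log2 scale (-0.33, SE 0.15, adjusted p 0.354 by limma). Its exons overlap those of Rnf31, and without a stated use of strand the reads of the pair may be shared.

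Irf7, the factor that amplifies interferon-α transcription, stood at 264 and 303 in WT unconfined, 311 and 282 in WKO unconfined, 282, 303 and 239 in WT confined, and 315, 339 and 225 in WKO confined libraries. The 4 groups overlapped, and its differences lay between -0.05 and 0.08 in the genotype and confinement contrasts (adjusted p 0.880 to 0.961 by limma). Exons of Irf7 overlap those of Phrf1, which stood at 766 to 1012 over the libraries. Without a stated use of strand, reads of Irf7 and Phrf1 may be shared. Usp18, which removes ISG15 from proteins and silences IFNAR2, had values of 165 and 99.8, 90.8 and 105, 136, 141 and 105, and 136, 117 and 49.1 in WT unconfined, WKO unconfined, WT confined and WKO confined libraries. WKO confined replicate 5 was the lowest library for Usp18, and the groups of each contrast overlapped. The WKO-against-WT differences of Usp18 were -0.39 (SE 0.43, adjusted p 0.851 by limma) and -0.45 (SE 0.35, adjusted p 0.573) in unconfined and confined cells, the latter -0.0044 without that library.

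Cytosolic sensors of RNA and of Z-form nucleic acids showed no call. Rigi, the sensor of RNA ends with a triphosphate, had the highest mean of them and stood at 678 and 463 in WT unconfined, 626 and 694 in WKO unconfined, 585, 595 and 514 in WT confined, and 568, 612 and 639 in WKO confined libraries. WT and WKO libraries overlapped in each condition, and WT groups overlapped, while 2 of the 3 WKO confined values lay below WKO unconfined replicate 1. Ifih1 (MDA5), Dhx58 (LGP2) and Zbp1 completed the group; their differences in the 4 contrasts lay between -0.40 and 0.49, both limits being those of Zbp1.

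In the Ifit family, of which several members bind viral RNA without the methylated cap of host mRNA, Ifit2 was the most abundant. Ifit2 stood at 316 and 251 in WT unconfined, 298 and 370 in WKO unconfined, 430, 330 and 246 in WT confined, and 257, 337 and 289 in WKO confined libraries. The groups overlapped, and its differences were -0.18 to 0.23. Ifit1 and Ifit3 did not pass in any contrast.

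All 6 members of the 2-5A synthetase family were below 0 under confinement in WT, and 4 of 6 in WKO. In WKO against WT 5 of 6 were below 0 in each condition, and none passed. Without WKO confined replicate 5, Oas1g (0.023) and Oasl2 (0.0038) were above 0 in WKO against WT confined. For confinement in WKO, leaving out that library put Oas1a above 0 (0.013) and Oasl1 below it (-0.081). Oasl2, an OAS-like protein, had the highest mean and stood at 933 and 795 in WT unconfined, 826 and 839 in WKO unconfined, 817, 736 and 756 in WT confined, and 752, 791 and 703 in WKO confined libraries. WKO confined values were below WKO unconfined ones without overlap, by a small difference of -0.15 (SE 0.12, adjusted p 0.618 by limma).

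Effectors that act on virus entry, replication or release (Mx1, Mx2, Cmpk2, Isg20, Bst2, Rsad2) were led by Bst2. It stood at 1063 and 1038 in WT unconfined, 1230 and 1013 in WKO unconfined, 1297, 1225 and 1249 in WT confined, and 1426, 914 and 882 in WKO confined libraries. WT confined libraries were above WT unconfined ones without overlap (0.26, SE 0.19, adjusted p 0.629 by limma), and WKO groups overlapped. The confined genotype difference of Bst2 was -0.26 and did not pass. Without WKO confined replicate 5 it was -0.14 (adjusted p 0.752 by limma). It passed without WKO confined replicate 1, at -0.48 (adjusted p 0.0307 by limma), and with array weights, at -0.42 (adjusted p 0.0178 by limma).

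The ubiquitin-like protein gene Isg15 and its mouse ligase Herc6 gave no call. Herc6, the more abundant of the pair, stood at 179 and 194 in WT unconfined, 184 and 186 in WKO unconfined, 183, 138 and 156 in WT confined, and 101, 168 and 229 in WKO confined libraries. WKO confined libraries spread on both sides of all others, and its differences were -0.23 to -0.01. Both genes share sequence with other annotated genes, which leaves their counts uncertain.

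Among the remaining 7 members (Slfn5, Parp14, Trim30a, Rtp4, Xaf1, Ifi27l2a and Ifi44), Slfn5, a schlafen family protein, had the highest mean. It stood at 2193 and 1582 in WT unconfined, 2267 and 1893 in WKO unconfined, 2530, 2305 and 2010 in WT confined, and 1829, 2489 and 2287 in WKO confined libraries. The groups overlapped, and differences were -0.06 to 0.29. The chaperone-like gene Rtp4 was lower in WT confined than in WT unconfined libraries without overlap (-0.52, SE 0.23, adjusted p 0.407 by limma), at 420 and 306 against 280, 257 and 219.

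Among signalling genes around the list, Irf1 and Socs3 rose with confinement in both genotypes. Of 50 genes for interferons, receptors and signal transducers, 29 were tested; 3 rose and 0 fell in WT, and 2 rose and 0 fell in WKO, by limma. These are 10.3% and 6.9% of the genes, where 1.16% and 1.72% of all tested genes passed. The list was drawn up with earlier results of the data known, so that these shares are no independent support. Irf1, a transcription factor that binds ISRE-like elements and is induced by interferon-γ and NF-κB, stood at 491 and 547 in WT unconfined, 723 and 1172 in WKO unconfined, 3626, 5464 and 4414 in WT confined, and 4350, 3198 and 8777 in WKO confined libraries. Every confined library was above every unconfined one. Irf1 rose by 3.10 (SE 0.34, adjusted p 0.00173 by limma) in WT and by 2.43 (SE 0.34, adjusted p 0.00416) in WKO.

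Socs3, an inhibitor of cytokine receptor signalling that is induced by STAT3, stood at 19.0 and 19.2 in WT unconfined, 21.7 and 119 in WKO unconfined, 716, 1136 and 1915 in WT confined, and 1501, 599 and 6332 in WKO confined libraries. Confined and unconfined libraries did not overlap. Socs3 rose by 5.85 (SE 0.84, adjusted p 0.00594 by limma) in WT and by 5.10 (SE 0.84, adjusted p 0.0110) in WKO. Without WKO confined replicate 5 the WKO changes of Irf1 and Socs3 were 2.02 (adjusted p 0.000375 by limma) and 4.19 (adjusted p 0.00351 by limma). Without WKO unconfined replicate 1 neither passed in WKO (0.0888 for Irf1 and 0.176 for Socs3 by limma), and Socs3 did not pass in WT without WT unconfined replicate 1 (0.0861) or 3 (0.0746).

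Trim25, the ubiquitin ligase known for its action on RIG-I signalling, stood at 5066 and 4196 in WT unconfined, 5408 and 6581 in WKO unconfined, 7018, 6636 and 7128 in WT confined, and 6700, 7104 and 6342 in WKO confined libraries. In WT it rose by 0.59 (SE 0.12, adjusted p 0.0418 by limma) without overlap, a call given by 9 of 21 alternatives. It was lost without any 1 of the 4 unconfined libraries, the 3 WT confined libraries or WKO confined replicate 2, at adjusted p-values of 0.0516 to 0.362 by limma. WKO groups overlapped.

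Ifnar1 and Ifnar2 did not pass the threshold of limma in any contrast of single groups. Ifnar1 stood at 3056 and 2699 in WT unconfined, 2932 and 2863 in WKO unconfined, 3652, 3491 and 3286 in WT confined, and 2698, 3622 and 4615 in WKO confined libraries. Its WT groups did not overlap (0.27, SE 0.18, adjusted p 0.586 by limma) and its WKO groups did. Ifnar2 had values of 479 and 559, 704 and 538, 555, 486 and 532, and 612, 636 and 772 in WT unconfined, WKO unconfined, WT confined and WKO confined libraries. WKO confined libraries were above WT confined ones without overlap (0.36, SE 0.14, adjusted p 0.240 by limma).

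Between genotypes 0 of the 29 genes passed in either condition by limma. An unadjusted p under 0.05 was reached by 3 and 4 of them in unconfined and confined cells (10.3% and 13.8%, against 9.6% and 16.8% of all tested genes). Above 0 in WKO against WT were 22 and 25 of the 29 (75.9% and 86.2%), against 50.3% and 50.5% of all tested genes. These shares, too, come from a list drawn up with earlier results of the data known.

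**Figure D4:**
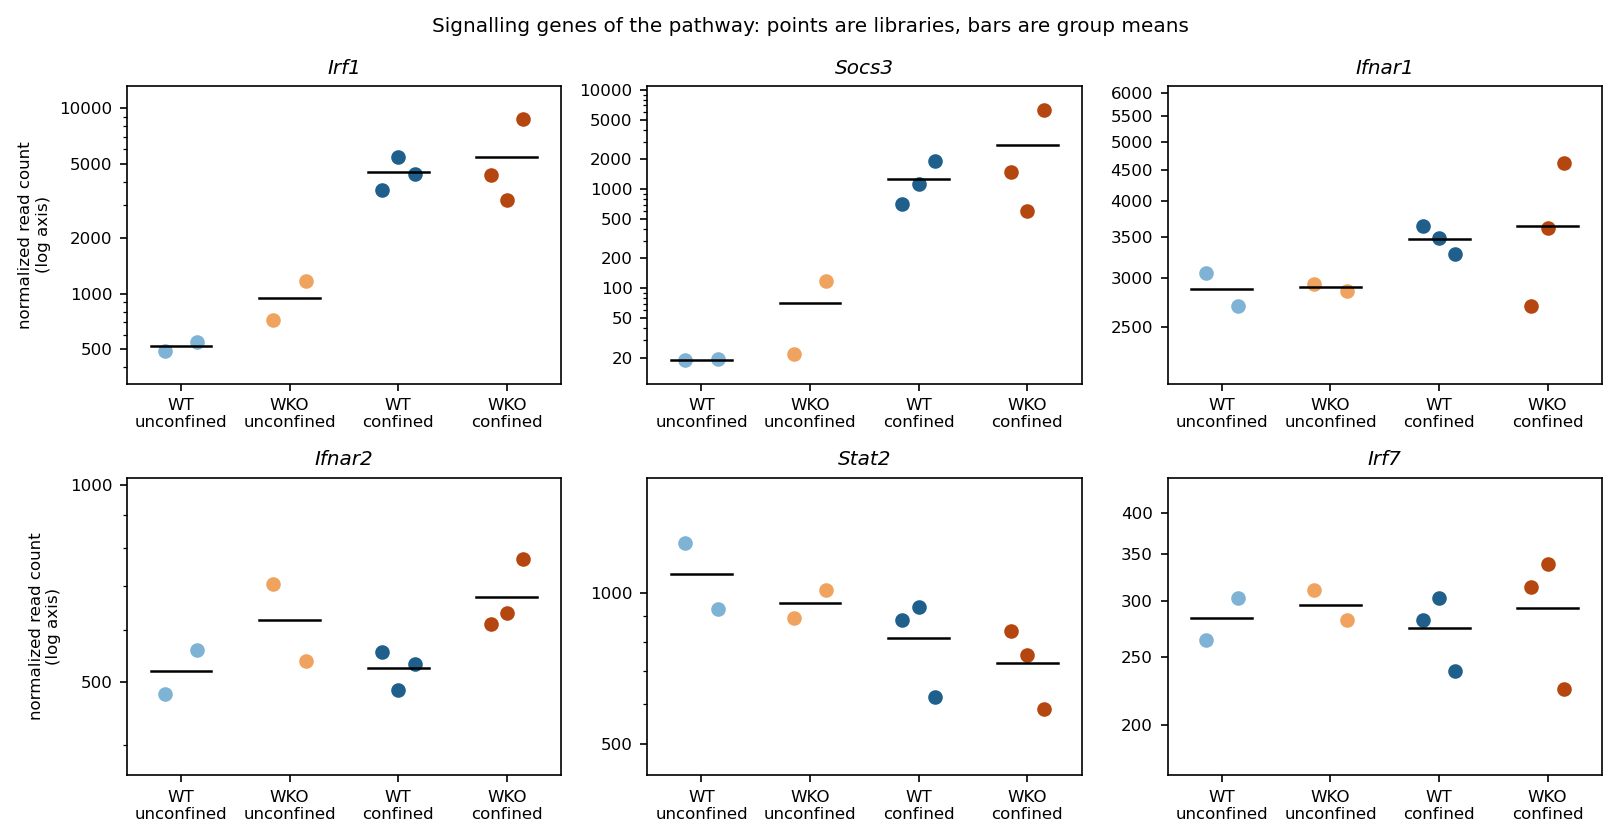
Normalized read counts (log axes) of 6 signalling genes in the 4 groups; points are libraries and bars are group means. Irf1 and Socs3 are higher in all 6 confined libraries than in all 4 unconfined ones, whereas the confined libraries of Stat2 and Irf7 overlap the unconfined ones or lie lower.

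Of a second list of 86 other interferon-stimulated genes, 81 were tested. Between genotypes 0 passed by limma in unconfined cells (0%, against 0.145% of all tested genes) and 1 in confined cells (1.23%, against 2.59%). With confinement 1 passed in WT (1.23%, against 1.16%) and 0 in WKO (0%, against 1.72%). In confined cells Ly6e, a lipid-anchored surface protein, was higher in WKO, at 1496, 1285 and 1896 against 736, 759 and 951 in WT. No values overlapped, and the difference was 0.93 (SE 0.19, adjusted p 0.0263 by limma). Irgm2, a p47 GTPase that restrains inflammasome activation, fell in WT under confinement, from 401 and 394 to 183, 239 and 165, by 1.03 on the log2 scale (-1.03, SE 0.19, adjusted p 0.0230 by limma).

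The call of Ly6e held under 16 of 21 alternatives and was lost without WT confined replicate 2 (adjusted p 0.109 by limma) or 3 (0.104). That of Irgm2 held under 15 of 21 and was lost without either WT unconfined library or WT confined replicate 2 or 6, at 0.0902 to 0.164 by limma. In numbers, 65 of the 81 genes were above 0 in WKO against WT in unconfined cells and 50 in confined cells, which are 80.2% and 61.7%, against 50.3% and 50.5% of all tested genes. Unadjusted p-values under 0.05 belonged to 8 (9.88%) and 24 (29.6%) of them, against 9.6% and 16.8% of all tested genes. Under confinement 28 were above 0 in WT and 28 in WKO (34.6% each, against 49% and 48%). The 4 medians were 0.15, 0.13, -0.085 and -0.13 in the same order of contrasts. This list, too, was drawn up with earlier results of the data known.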

How the data were processed

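The authors deposited 1 table of a signal per gene and library, normalized read counts. FastQC, Trim Galore, STAR, GRCm38 and mm10 are named in the submitters' processing notes; the counting tool, annotation and use of strand are not given in the sources used here. Whole reads could be recovered for 100% of the values (tolerance 1e-06), and the deposited values equalled reads divided by recomputed DESeq2 size factors to within 2e-15. Such scaling removes differences of depth but not of composition or gene length.

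Genes with a mean of at least 10 (12455) were tested as log2(value + 1) with limma 3.58.1 in R 4.3.3. The model had 1 mean per group over 10 libraries, 6 residual degrees of freedom, a mean-variance trend and Benjamini-Hochberg adjustment at a threshold of 0.05. Groups came from the genotype and treatment labels. Alternatives were edgeR 4.0.16 and DESeq2 1.42.0 on the recovered reads, other scalings (TMM, upper quartile), a pseudocount of 5, no filter, a mean of at least 50, the 2 groups alone, no trend, array weights, a replicate block and each library left out. The main limma fit, edgeR and DESeq2 were first run on simulated data, for the unconfined genotype contrast only.

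The members and lists were chosen with earlier results of these data known. Values are named for members past the threshold, the 3 with the smallest p per contrast, the highest mean in each role, members at the floor, Irf7, Irf9, Stat2, Usp18 and Cxcl10; of the pathway lists, for genes past the threshold and for Ifnb1, Ifnar1, Ifnar2 and Irf1; 1 further gene is not reported here. Rtp4, Ifi205 and Cxcl9 values beyond that rule were added after they were seen. Contrasts averaged over conditions or genotypes were also chosen after the values were seen.

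Exon lengths, overlaps and shared sequence (blastn 2.17.0, at least 95% identity over 100 bases, 20% of the transcript) came from GENCODE M21. By this, 8 kept members share sequence with another gene and 12 overlap its exons. The table holds 4981 identifiers that M21 does not. Replicate libraries differed beyond sampling noise (chi-square per degree of freedom 7.56 to 78.3), so each was counted separately.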

Additional observations from a re-analysis of the deposited data

How the results depend on the processing

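Across the alternatives no result changed direction with a call. Single-gene differences of the 5 planned contrasts kept their side of the threshold in 399 cases, became called in 13 and lost their call in 43; for the contrasts averaged afterwards these numbers were 334, 16 and 129. The interaction gave 0 members and 0 genes under every alternative run. Same-numbered libraries did not deviate together (correlations -0.11 to 0.076), so the numbers were not taken to pair samples. The replicate block fits WKO confined replicate 5 and WT confined replicate 6 exactly, because no other library has these numbers. Array weights were 0.283 and 0.321 for WKO confined replicates 1 and 5, and 3.74 for WKO confined replicate 2. These settings are thus not independent of leaving out single libraries. The cause of the changes below was not tested.

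Counts of members are out of 40 and are to be read beside the counts out of 12455 tested genes in the next paragraph. Members past the threshold, in WKO against WT unconfined, were 1 with a replicate block (Gbp5, adjusted p 0.0436 by limma) against 0. In WKO against WT confined they were 2 with array weights and 3 with DESeq2 against 0, and 0 to 2 with a library left out. For confinement in WT they were 1 in the 2 groups alone, with array weights or with the replicate block against 0, and 0 to 1 with a library left out. For confinement in WKO they were 0 without a filter, in the 2 groups alone, without a trend and with edgeR, and 2 with array weights, against 1; 0 to 1 with a library left out. Averaged over conditions they were 4 with array weights, 3 with the replicate block and 3 with DESeq2 against 0, and 0 to 2 with a library left out. Averaged over genotypes they were 4 with array weights and 3 with DESeq2 against 1, and 1 to 2 with a library left out.

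Genes past the threshold, in WKO against WT unconfined (18), were 10 without a filter, 189 in the 2 groups alone, 4 without a trend, 166 with array weights, 245 with the replicate block, 183 with DESeq2 and 4 to 141 with a library left out. In WKO against WT confined (322) they were 186, 90, 53, 1948 and 778 without a filter, in the 2 groups alone, without a trend, with array weights and with DESeq2, and 58 to 701 with a library left out. For confinement in WT (144) they were 455 in the 2 groups alone, 20 without a trend, 419 with array weights, 332 with DESeq2 and 22 to 397 with a library left out. For confinement in WKO (214) they were 33, 45, 1735 and 485 in the same order, and 43 to 1043 with a library left out. Averaged over conditions (694) they were 438 without a filter, 360 without a trend, 1804 with array weights, 1150 with DESeq2 and 169 to 1115 with a library left out. Averaged over genotypes (773) they were 424 without a trend, 2220 with array weights, 383 with the replicate block, 1215 with DESeq2 and 288 to 1807 with a library left out.

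The median of the members moved with the replicate block to -0.069 in WKO against WT confined, to 0.029 for confinement in WT and to -0.19 for the interaction. For confinement in WT it was -0.18 to 0.032 with a library left out. Groups of 2 and 3 limit what differences could be called, and a gene at the floor of 3 reads cannot be told from one without expression.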

Other observations

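The second list holds further genes of the GTPase and Pyhin families. The guanylate-binding genes Gbp4, Gbp7, Gbp8 and Gbp9 were above 0 in WKO against WT in 4 of 4 cases in both conditions, with medians of 1.02 unconfined and 1.03 confined, and none passed the threshold of limma. Gbp9 stood at 313 and 256 in WT unconfined, 349 and 364 in WKO unconfined, 240, 209 and 186 in WT confined, and 313, 303 and 357 in WKO confined libraries. WKO exceeded WT without overlap in each condition; averaged over conditions, a contrast chosen after the values were seen, the difference was 0.47 (SE 0.12, adjusted p 0.0428 by limma). It passed under 8 of 20 alternatives and not without WKO confined replicate 5 (0.0511 by limma). Of 6 Pyhin genes on that list, 6 and 5 were above 0 in unconfined and confined cells, and none passed the threshold of limma there. Of the 5 p47 GTPases Igtp, Iigp1, Irgm1, Irgm2 and Tgtp2, 4 were above 0 in unconfined cells (median 0.40) and 2 in confined cells (median -0.089), and none passed. Ifi209 of the Pyhin genes passed in the averaged contrast (0.62, SE 0.16, adjusted p 0.0428 by limma) and under 10 of 20 alternatives. These lists were drawn up with earlier results of the data known, and the neutrophil, B lineage, stromal, macrophage and dendritic cell markers that moved with genotype stand beside these values too; their part was not tested.

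In the same averaged genotype contrast Ifngr1, a chain of the interferon-γ receptor, was higher in WKO (0.51, SE 0.11, adjusted p 0.0203 by limma), and the monocyte chemokine gene Ccl12 was lower (-1.84, SE 0.43, adjusted p 0.0294 by limma). Ifngr1 stood at 2170 to 2666 in the 5 WT libraries and at 3194 to 4716 in the 5 WKO libraries, which did not overlap. Ccl12 stood at 104 and 58.5 in WT unconfined, 29.6 and 20.6 in WKO unconfined, 138, 121 and 142 in WT confined, and 36.9, 10.5 and 74.3 in WKO confined libraries. WKO values were below WT values of the same condition without overlap, although WKO confined replicate 5 was above WT unconfined replicate 3. Trim34a was higher (0.52, adjusted p 0.0460 by limma) and Tor3a lower (-0.33, adjusted p 0.0393 by limma) in WKO. By limma 6 of the 81 tested genes of the second list passed in this contrast (7.41%). Among the 29 signalling genes 1 passed (3.45%), where 5.57% of all tested genes did. Of 20 alternatives, Ifngr1 passed under 16, Ccl12 under 11, Trim34a under 8 and Tor3a under 9, and leaving out WKO unconfined replicate 3 ended the calls of Ifngr1 (0.112), Ccl12 (0.140) and Trim34a (0.178 by limma).

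Averaged over genotypes, confinement raised Slfn2 (1.11, SE 0.24, adjusted p 0.0190 by limma), Cd274 (0.96, SE 0.21, adjusted p 0.0194), which encodes the checkpoint ligand PD-L1, and Socs1 (1.42, SE 0.36, adjusted p 0.0408), a feedback inhibitor of JAK kinases. Irf8 (-0.43, adjusted p 0.0145 by limma), Mavs (-0.46, adjusted p 0.0336), Parp11 (-0.54, adjusted p 0.0231) and Irgm2 (-0.78, adjusted p 0.00494) fell in that contrast. Irf2bp2 rose by 0.59 (adjusted p 0.0336 by limma). Of the 29 signalling genes 7 passed there (24.1%), and of the 81 genes of the second list 4 did (4.94%). Of all tested genes 6.21% passed. Both lists were drawn up with earlier results of the data known. Of 20 alternatives, Irgm2 passed under 19, Irf8 under 15, Slfn2 and Cd274 under 14 each, Parp11 under 12, Mavs under 10 and Irf2bp2 under 9, and Socs1 passed under 10 of 19. Leaving out WKO unconfined replicate 1 ended the calls of Cd274 (0.111), Irf8 (0.0728), Mavs (0.136), Parp11 (0.0805), Irf2bp2 (0.153) and Socs1 (0.143 by limma).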
